A study of Mus musculus with 12 samples.

Results

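The 10 endothelial cell genes Pecam1, Cdh5, Kdr, Flt1, Tek, Tie1, Cldn5, Emcn, Esam and Cd34 were followed through 3 preparations of adult mouse dorsal root ganglia (DRG), the ganglia beside the spinal cord that hold the cell bodies of sensory neurons. They were chosen by name, as the entries of the expression table whose gene symbol is one of the 10, and all 10 were found among 24490 genes. All samples came from adult male C57Bl/6 mice, and the labels name no transgene or drug treatment. Intact samples were whole ganglia frozen directly, with 1 mouse per sample. Unsorted samples, labelled as dissociated, were ganglia from 2 mice that were digested with dispase, collagenase and DNAse, triturated and filtered. Magnetically sorted (MACS-sorted) samples were ganglia from 8 mice, dissociated the same way and then incubated with a biotinylated cocktail of antibodies against non-neuronal cells. A magnetic column held back the labelled cells and the flow-through was sequenced. The antibodies in the cocktail are not named in the sources used here. Each group had 4 samples. Pool size, digestion and sorting therefore differed together between the groups.

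Endothelial cells line blood and lymph vessels. Vascular endothelial growth factor acts on them through the tyrosine kinase receptors Kdr (VEGFR2) and Flt1 (VEGFR1), and angiopoietins act through the receptor Tek (Tie2) with its partner Tie1. Neighbouring endothelial cells are held together by adherens junctions built on VE-cadherin (Cdh5), by contacts of Pecam1 and Esam, and by tight junctions in which Cldn5 limits leakage. Emcn and Cd34 encode sialomucins of the cell surface. Neurons of the DRG lie among a dense net of capillaries, and the genes are widely used to recognise endothelium in mixed tissue.

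For 7 of the 10 genes a promoter sequence of the RefSeq annotation (GRCm38.p6) was matched by symbol, and Pecam1, Cdh5 and Esam had no entry. The 250 bases before the start of 4 of them are printed here, because 3 of these genes (Tie1, Tek and Cldn5) rose and fell together across the samples below, whereas Cd34 did not. Each sequence runs 5′ to 3′ in the direction of the gene, and capitals mark every GGAA or TTCC, the core letters recognised by ETS transcription factors on either strand.
Tie1: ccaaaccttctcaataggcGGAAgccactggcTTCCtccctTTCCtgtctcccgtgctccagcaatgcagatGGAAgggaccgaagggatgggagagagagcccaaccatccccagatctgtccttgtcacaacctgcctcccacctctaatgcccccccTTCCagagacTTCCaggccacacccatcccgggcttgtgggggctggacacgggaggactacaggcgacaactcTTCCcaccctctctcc
Tek: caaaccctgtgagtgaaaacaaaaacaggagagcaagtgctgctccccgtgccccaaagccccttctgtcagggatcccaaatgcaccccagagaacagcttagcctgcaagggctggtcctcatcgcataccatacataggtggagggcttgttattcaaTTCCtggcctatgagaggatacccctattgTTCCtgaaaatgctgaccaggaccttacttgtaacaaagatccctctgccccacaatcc
Cldn5: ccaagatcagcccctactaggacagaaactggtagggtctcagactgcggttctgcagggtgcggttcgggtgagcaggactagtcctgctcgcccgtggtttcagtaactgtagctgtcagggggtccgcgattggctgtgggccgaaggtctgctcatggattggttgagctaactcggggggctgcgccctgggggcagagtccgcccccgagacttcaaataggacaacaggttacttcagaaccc
Cd34: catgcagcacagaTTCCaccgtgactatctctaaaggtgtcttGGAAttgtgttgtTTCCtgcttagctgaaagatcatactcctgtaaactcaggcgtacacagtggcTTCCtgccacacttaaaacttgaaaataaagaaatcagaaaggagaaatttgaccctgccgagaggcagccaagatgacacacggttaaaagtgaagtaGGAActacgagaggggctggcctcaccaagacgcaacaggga
The Tie1 window lies at chr4:118489850-118490099 on the minus strand and holds 7 core matches. The Tek window lies at chr4:94739039-94739288 on the plus strand and holds 2. The Cldn5 window, at chr16:18776597-18776846 on the plus strand, holds 0, and the Cd34 window, at chr1:194938571-194938820 on the plus strand, holds 5. Of the 7 windows, 6 held at least 1 GGAA or TTCC, as did 93.4% of 32851 RefSeq promoter windows of this length. The longer form CAGGAA, which contains the core, was found on either strand in 4 of the 7 windows and in 25.7% of all windows. The GATA motif AGATAA was found on either strand in 0 of the 7 and in 9.99% of all windows. The matches are a description of the letters and were not tested against the expression values.

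Expression was given as FPKM, the number of fragments scaled by transcript length and by the total of mapped fragments of the sample. A mean of 1 FPKM over the samples compared was required for a test. Every one of the 10 genes passed this limit in all 3 comparisons. The number of fragments per sample, read from the steps between small FPKM values, was between 16300000 and 19300000 for intact samples, 15600000 and 18500000 for unsorted samples and 13600000 and 17100000 for sorted samples. On these estimates the fewest fragments behind a value of an endothelial gene were 41, for Tek in MACS-sorted replicate 2. In bulk samples a lower level can come from fewer cells of a type or from less RNA per cell, and these cannot be told apart. The sorted samples did not behave alike. MACS-sorted replicate 2 was the lowest of the sorted replicates for 9 of the 10 genes, so results of the sorted group are given with and without it. Unsorted replicates 1 and 2 were the closest of the 18 replicate pairs within groups, with a median absolute log2 difference of 0.0456 over genes against 0.0703 for the next pair. Averaging them into 1 sample left the counts of called endothelial genes as they were.

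Both VEGF receptors were low in intact ganglia, rose on dissociation and varied widely after sorting. Kdr is the main signalling receptor for VEGF-A, and its gene spans 75933270 to 75978428 on chromosome 5 (build mm10 here and below). It stood at 1.49, 1.56, 1.49 and 1.47 FPKM in intact replicates 1 to 4 and at 4.38, 3.56, 2.89 and 3.32 in unsorted replicates 1 to 4. The MACS-sorted replicates 1 to 4 gave 3.33, 0.700, 2.62 and 3.14 FPKM. All unsorted samples lay above all intact ones, and MACS-sorted replicate 2 lay below every other sample. Flt1 binds VEGF-A tightly and can act as a decoy for it, and lies on the same chromosome from 147562196 to 147725988. Its values were 1.82, 2.38, 2.30 and 2.17 FPKM in intact and 6.93, 6.75, 5.81 and 5.91 in unsorted DRG. After sorting it gave 5.27, 1.23, 6.33 and 7.09 FPKM in replicates 1 to 4. Here too the intact and unsorted ranges did not overlap, and MACS-sorted replicate 2 was the lowest of the 12 samples.

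The angiopoietin receptor genes showed the same differences between intact and unsorted samples. Tek, on chromosome 4 from 94739289 to 94874976, encodes the receptor that binds angiopoietins. In intact ganglia it gave 1.37, 1.48, 1.64 and 1.43 FPKM, and it gave 3.27, 3.41, 2.39 and 3.03 after dissociation. MACS-sorted replicates 1 to 4 gave 2.43, 0.587, 2.01 and 4.15 FPKM, so that replicate 4 lay above and replicate 2 below all samples of the other groups. Tie1, the related receptor that pairs with Tek, is on the same chromosome from 118471191 to 118489849. It measured 1.66, 2.02, 2.34 and 2.24 FPKM in intact and 5.47, 5.34, 4.69 and 5.11 in unsorted DRG, again without overlap. Sorted replicates 1 to 4 gave 4.64, 1.22, 3.80 and 7.68 FPKM, with replicate 2 under the lowest intact value.

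Among the junction genes, Cldn5 had the highest level and the widest spread after sorting. Cldn5 is a gene of 1 exon on chromosome 16 from 18776847 to 18778262, and encodes the claudin that dominates tight junctions of brain endothelium. In intact replicates 1 to 4 it gave 7.19, 5.57, 7.47 and 8.84 FPKM, and in unsorted replicates 18.9, 18.7, 14.6 and 17.7. The sorted replicates gave 24.5, 4.55, 20.6 and 34.1 FPKM. Replicates 1, 3 and 4 thus exceeded every unsorted sample and every intact sample, whereas replicate 2 was the lowest of all 12. Cdh5, the adherens junction cadherin, lies on chromosome 8 from 104101625 to 104144502. Its levels were 5.51, 5.15, 5.02 and 4.77 FPKM before dissociation, 8.47, 8.92, 6.74 and 7.12 after it and 8.04, 2.17, 6.30 and 9.08 after sorting. The intact samples had a narrow range, and only sorted replicate 2 fell under it. Exons of Cdh5 are overlapped by the antisense gene Gm29682. Whether strand was used in the authors' estimates is not given in the sources used here, so reads of the overlap cannot be assigned.

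Pecam1, an adhesion receptor at endothelial contacts that platelets and leukocytes also carry, is on chromosome 11 from 106654218 to 106715281. The intact samples gave 4.61, 4.10, 4.70 and 5.04 FPKM and the unsorted samples 8.55, 8.65, 5.73 and 7.70. Sorted replicates gave 6.74, 2.19, 6.11 and 10.5 FPKM. Esam, an adhesion molecule of endothelial tight junctions and platelets, is on chromosome 9 from 37528089 to 37538319. It gave 6.16, 4.99, 6.69 and 5.49 FPKM in intact samples, 13.8, 13.7, 11.7 and 10.3 in unsorted samples and 11.05, 3.84, 9.10 and 15.2 in sorted samples. For both genes the unsorted samples lay above the intact ones without overlap. In both, sorted replicate 2 lay below all other samples and replicate 4 above all of them.

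The 2 sialomucin genes differed from each other. Emcn, which encodes endomucin of venous and capillary endothelium, is on chromosome 3 from 137341078 to 137431069. It measured 6.13, 5.35, 5.11 and 4.05 FPKM in intact and 10.5, 9.97, 9.80 and 7.74 in unsorted DRG. Sorted replicates 1 to 4 gave 8.10, 3.55, 7.85 and 14.0 FPKM, with replicate 2 lowest and replicate 4 highest of the 12. Cd34 is not restricted to endothelium, since blood progenitors and connective tissue cells also express it. It is on chromosome 1 from 194938821 to 194961292 and its exons are overlapped by the antisense gene Gm16897. Intact replicates gave 35.7, 21.1, 22.0 and 25.1 FPKM, unsorted replicates 25.4, 27.1, 18.5 and 21.9, and sorted replicates 22.1, 31.5, 30.4 and 47.1. The intact and unsorted ranges overlapped, and sorted replicate 2 was not low for Cd34.

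**Figure D1:**
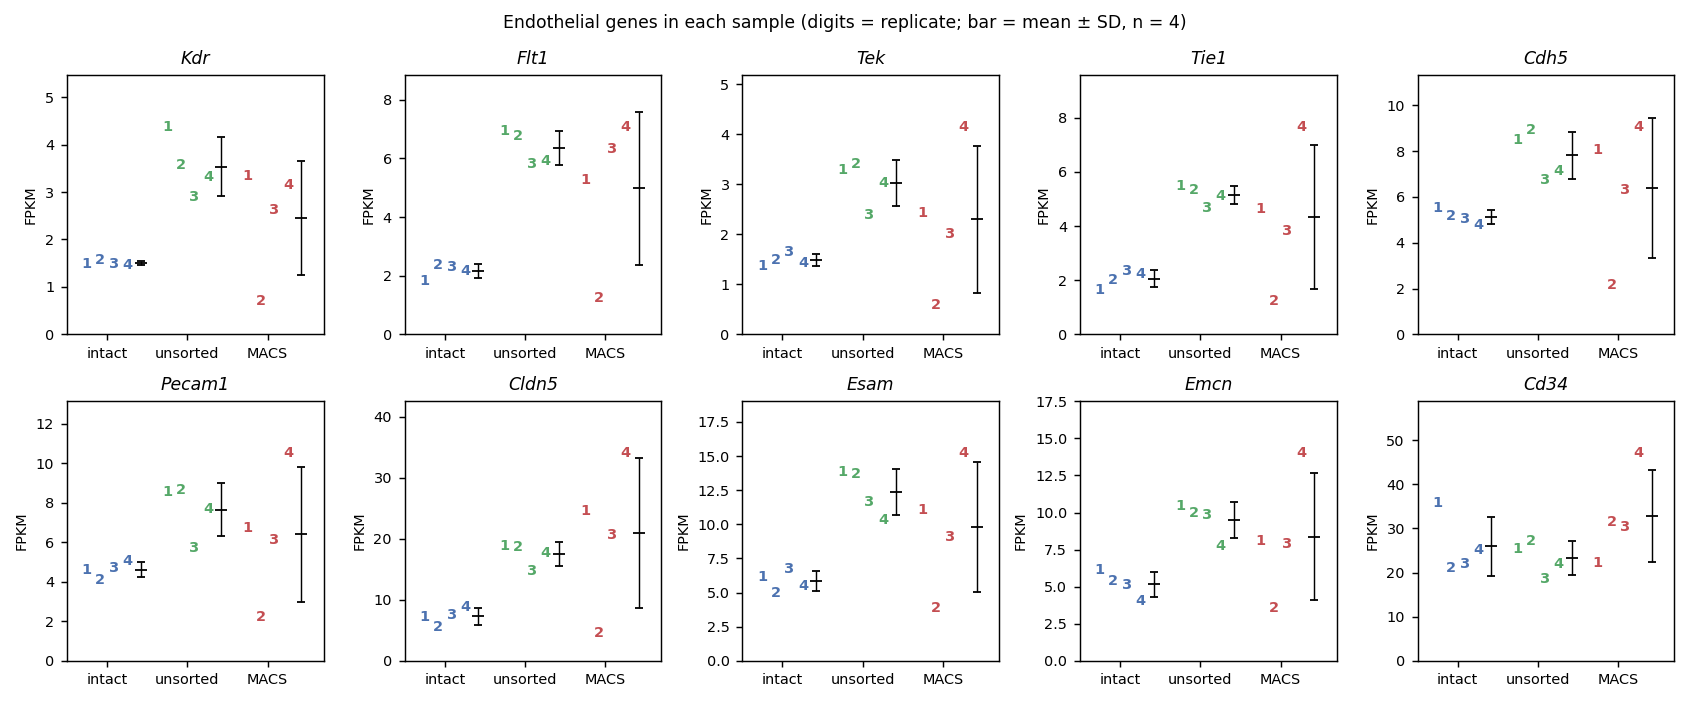
FPKM (linear axis from 0) of the 10 endothelial genes in intact, unsorted and MACS-sorted DRG, 1 panel per gene. Digits are replicate numbers and the bar beside them is the mean ± SD (n = 4); the 4 unsorted samples lie above the 4 intact samples in every panel but Cd34, and the digit 2 of the sorted group is the lowest point in those 9 panels.

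Per kilobase of transcript, Cd34 was the most highly expressed of the 10 genes in each group, with means of 26.0 ± 6.71 FPKM in intact samples, 23.2 ± 3.81 in unsorted samples and 32.8 ± 10.5 in sorted samples (SD, n = 4). In unsorted DRG the order continued with Cldn5 at 17.5 ± 1.96 FPKM, Esam at 12.4 ± 1.69 and Emcn at 9.49 ± 1.20. It went on with Cdh5 at 7.81 ± 1.05, Pecam1 at 7.66 ± 1.36, Flt1 at 6.35 ± 0.572 and Tie1 at 5.15 ± 0.344. Kdr at 3.54 ± 0.626 and Tek at 3.03 ± 0.452 FPKM came last. The neighbours Cdh5 and Pecam1, Pecam1 and Flt1, and Kdr and Tek differed by less than the larger of their SDs. In intact DRG the means ran from 1.48 ± 0.117 FPKM for Tek to 7.27 ± 1.34 for Cldn5 below Cd34. In the sorted group the SDs were larger, with Cldn5 at 20.9 ± 12.3 FPKM, Flt1 at 4.98 ± 2.61 and Tek at 2.30 ± 1.47. The coefficient of variation of the 10 genes was between 2.76% and 25.8% in intact DRG (median 12.1%), between 6.68% and 17.7% in unsorted DRG (median 13.5%) and between 31.9% and 63.9% in MACS-sorted DRG (median 51.9%).

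The comparison of unsorted with intact DRG asks how digestion and trituration go with changes in the tissue's RNA. Of the 10 endothelial genes, 9 were higher in unsorted DRG and Cd34 was not, and the rise was between 1.53-fold for Cdh5 and 2.93-fold for Flt1 (ratio of mean FPKM, median 2.12-fold over the 9). These 9 passed an adjusted p under 0.05 by limma with Benjamini-Hochberg adjustment over all genes tested. Their groups did not overlap, with all 4 unsorted samples above all 4 intact ones. Among all 12392 genes tested, 14.8% passed that limit in the higher and 7.79% in the lower direction, and 20.8% had all unsorted above all intact samples. When the log2 ratio of means also had to exceed 0.5 and the higher of both means 5 FPKM, 7 of the 10 were called higher, beside 4.29% of all genes. Kdr and Tek missed the call because their unsorted means were under 5 FPKM.

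The largest change was that of the VEGF receptor Flt1, with a log2 fold change of 1.51, taken on log2(FPKM + 0.1) as are all fold changes below (standard error 0.11, adjusted p = 0.00019, limma). Next came Tie1 at 1.29 (standard error 0.12, adjusted p = 0.00099), Cldn5 at 1.27 (standard error 0.14, adjusted p = 0.0016) and Kdr at 1.17 (standard error 0.13, adjusted p = 0.0016), all by limma. Esam rose by 1.07, Tek by 0.97 and Emcn by 0.87 on the same scale. The smallest rises that passed were those of Pecam1, 0.70 (standard error 0.14, adjusted p = 0.0093, limma), and Cdh5, 0.59 (standard error 0.10, adjusted p = 0.0067, limma). Cd34 gave -0.14 (95% interval -0.55 to 0.26, adjusted p = 0.59, limma). The median of the 10 was 1.02, beside 0.01 over all genes tested. When all 12 samples entered 1 fit, so that the spread of the sorted samples was shared, 3 of the 10 were called, namely Flt1, Tie1 and Esam. The share of all genes called in that fit was not counted.

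Other lists of vascular genes were counted in the same comparison, beside 14.8% higher and 7.79% lower of all genes at an adjusted p under 0.05. Of 27 further surface and secreted genes of endothelium, 11 were higher at an adjusted p under 0.05, 1 was lower and 15 did not pass, by limma. Of 12 tested transporters of the brain endothelial barrier, 6 were higher, 2 lower and 4 did not pass. Arterial genes gave 5 higher of 7, and venous and lymphatic genes 0 of 2 and 0 of 3 in either direction, also at an unadjusted p under 0.05. Pericyte and smooth muscle genes gave 3 higher and 1 lower of 8. Of the genes that mark other cells, 6 of 7 fibroblast genes were lower, 3 of 8 satellite glia genes were higher, and 0 of 7 Schwann cell genes passed, with 2 lower at an unadjusted p under 0.05. Among 12 neuronal genes 5 were higher. Red blood cell genes, which mark blood left in vessels, gave 2 higher of 8. The part of these other cells in the rise of the endothelial genes was not tested.

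**Figure D2:**
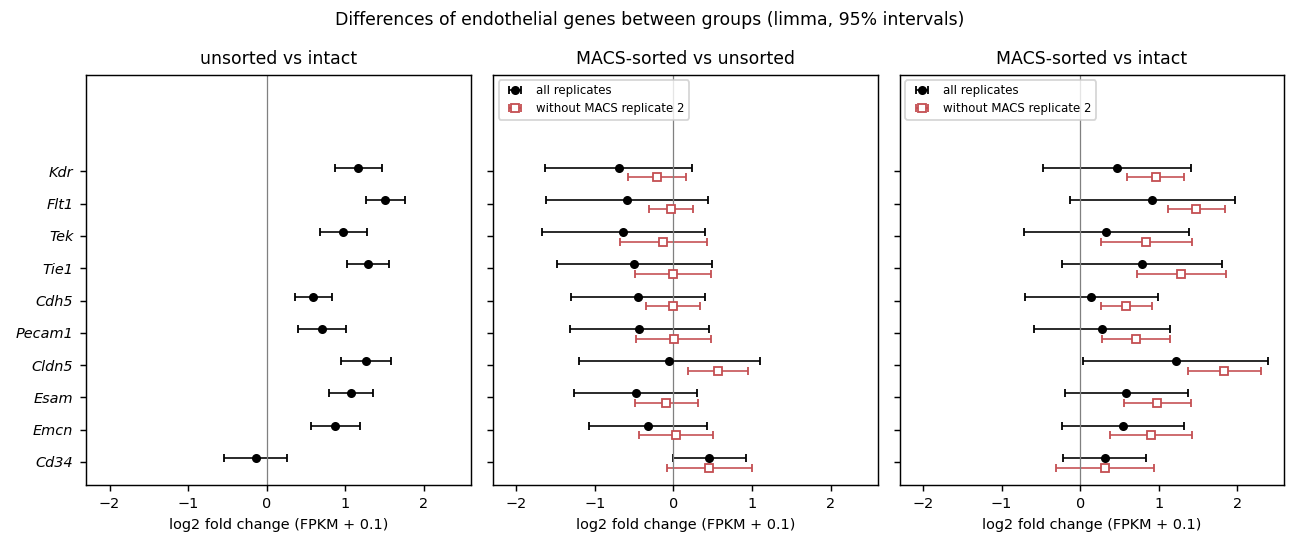
Log2 fold change on the log2(FPKM + 0.1) scale (x axis) of each endothelial gene for the 3 comparisons, with 95% intervals from limma; black circles use all replicates and open squares leave out MACS-sorted replicate 2. In unsorted against intact DRG 9 of 10 intervals lie above 0. Without replicate 2 the intervals for sorted against unsorted DRG still include 0 in 9 of 10 genes, with Cldn5 as the exception, whereas for sorted against intact DRG 9 of 10 then lie above 0, with Cd34 as the exception.

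Sorting against unsorted DRG asks which transcripts are kept or lost when labelled cells are removed. For the endothelial genes the 4 sorted replicates differed more from each other than the group means did. By limma, 0 of 10 passed an adjusted p under 0.05, and 0 had an unadjusted p under 0.05 (adjusted p between 0.10 and 0.95). Of all 12038 genes tested, 27.7% were lower and 18.8% higher at an adjusted p under 0.05. With the further criteria of a call, 12.5% were called lower and 8.15% higher. The log2 fold changes ran from -0.70 for Kdr to -0.05 for Cldn5, and only Cd34, at 0.46, was above 0, beside 46% of all genes, although Cldn5 also came out above 0 with median-ratio size factors (0.010) and quantile normalization (0.068). Leaving Cd34 aside, the 95% intervals reached from -1.68 to 1.10. For Cd34 the interval was -0.01 to 0.93 (adjusted p = 0.10, limma). The median of the 10 was -0.47, beside -0.04 over all genes.

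The replicates of the sorted group were therefore set against the unsorted mean 1 by 1. Leaving Cd34 aside, replicate 1 gave between 80.4% and 140% of the unsorted mean (median over the 9 genes 89.4%). Replicate 2 gave between 19.4% (Flt1) and 37.4% (Emcn), with a median of 26.0%. Replicate 3 gave 66.5% to 118% (median 79.9%) and replicate 4 gave 88.9% to 195% (median 137%). Replicate 2 was thus the lowest of the 4 in 9 of 10 genes, and in those 9 it lay below all unsorted and also below all intact samples. Replicate 4 was the highest of the 4 in 9 of 10 genes, with Kdr as the exception, and exceeded all unsorted samples in the same 9. Between these replicates the level differed from 3.95-fold for Emcn to 7.49-fold for Cldn5 (replicate 4 over replicate 2). Cd34 stood at 95.1%, 136%, 131% and 203% of its unsorted mean in replicates 1 to 4.

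**Figure D3:**
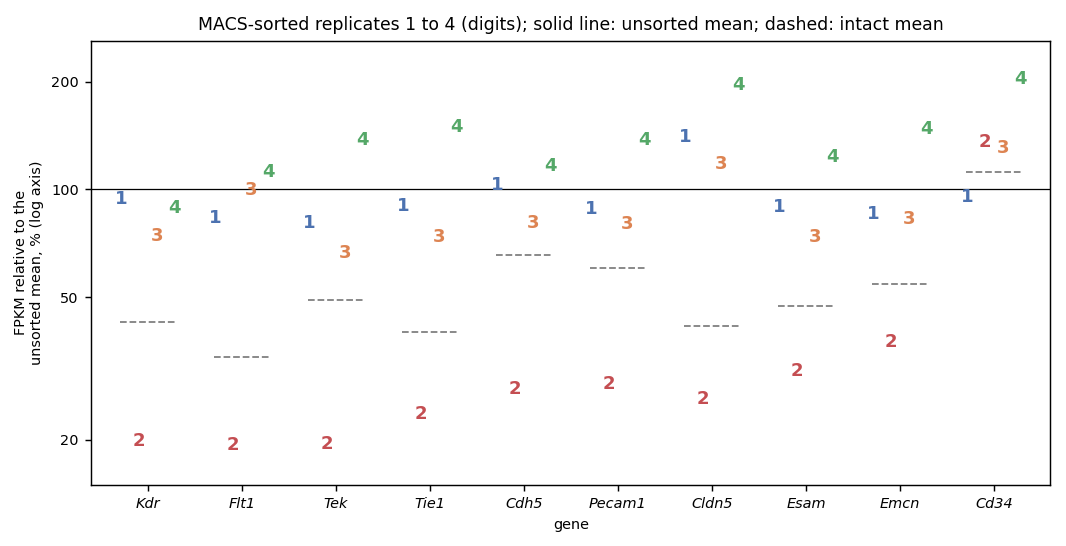
Level of each endothelial gene in MACS-sorted replicates 1 to 4 (digits), as % of the unsorted mean FPKM (log axis); the solid line at 100 is the unsorted mean and the dashed line the intact mean of that gene. Replicate 2 lies below the intact mean for 9 genes, at 19.4% to 37.4% of the unsorted mean, while replicates 1, 3 and 4 lie above the intact mean for these genes.

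Without replicate 2 the log2 fold changes between sorted and unsorted DRG moved close to 0 for most genes. Replicate 2 was the lowest sorted value in 9 of the 10 genes, so leaving it out raises their sorted means by construction. Cldn5 was then called higher, at 0.57 (standard error 0.17, adjusted p = 0.022, limma), beside 7.62% of 12110 genes called higher. The 8 genes other than Cldn5 and Cd34 lay between -0.21 and 0.03, with 95% intervals between -0.68 and 0.50, and did not pass. Cd34 gave 0.46 (95% interval -0.08 to 1.00, adjusted p = 0.15, limma). Leaving out sorted replicate 1 in its place led to a call for Cd34, at 0.63 (adjusted p = 0.021, limma), and for no other of the 10 genes. The share of all genes called without replicate 1 was not counted.

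Sorted against intact DRG combines dissociation and sorting. Again 0 of 10 endothelial genes passed an adjusted p under 0.05 by limma, and Cldn5 alone had an unadjusted p under 0.05. Of 12234 genes tested, 14.1% were higher and 20.6% lower at an adjusted p under 0.05, and 7.54% were called higher and 10.7% lower. The log2 fold changes were above 0 for all 10, beside 46.7% of all genes, and ran from 0.14 for Cdh5 to 1.21 for Cldn5 (95% interval 0.04 to 2.39, adjusted p = 0.10, limma), with Flt1 at 0.92 (95% interval -0.14 to 1.97). Their median was 0.51, beside -0.04 over all genes. With quantile normalization, which moved the median of all genes to 0.13, 4 of the 10 were higher at an adjusted p under 0.05 by limma, namely Flt1 (1.42), Tie1 (1.33), Kdr (1.14) and Tek (1.04), and 1 of them was called. Without sorted replicate 2, 9 of the 10 were higher at an adjusted p under 0.05 and 7 were called, beside 6.72% of 12326 genes called higher. Replicate 2 was singled out as the lowest sorted value of these 9 genes, so leaving it out raises their sorted means by construction. The 9 then ranged from 0.59 for Cdh5 to 1.83 for Cldn5 (adjusted p between 0.00024 and 0.035, limma), with Kdr and Tek under the limit of 5 FPKM. With quantile normalization or without replicate 2, the share of all genes at an adjusted p under 0.05 was not counted. Cd34 gave 0.32 (95% interval -0.30 to 0.93). The sorted comparisons share their sorted samples, and unsorted samples serve in 2 of the 3 comparisons, so these results are not independent.

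Several gene lists of other non-neuronal cells stood further below the unsorted mean than the endothelial genes did in each sorted sample. As a median over genes with an unsorted mean of at least 1 FPKM, the 10 endothelial genes stood at 89.7%, 26.9%, 80.3% and 137% of the unsorted mean in sorted replicates 1 to 4. Fibroblast genes stood at 0.383%, 0.294%, 2.16% and 11.8%, and satellite glia genes at 0.547%, 0.502%, 1.14% and 6.41%. Schwann cell genes gave 2.90%, 2.68%, 5.49% and 22.8%, and genes of pericytes and vascular smooth muscle 3.46%, 1.50%, 2.87% and 9.92%. Genes of neurons stood at 124%, 127%, 110% and 114%. By this median, replicate 2 was lowest and replicate 4 highest for fibroblasts, satellite glia, Schwann cells and pericytes as well as for the endothelial genes, whereas neuronal genes did not share that order. Replicates 1 and 2 lay close together for fibroblasts, satellite glia and Schwann cells, unlike the 89.7% and 26.9% of the endothelial genes. In summed FPKM replicate 1 was lower than replicate 2 for fibroblasts (7.62 and 8.01) and for pericytes and smooth muscle (56.0 and 90.8). Haemoglobin genes made up 0.680%, 0.864%, 5.14% and 7.13% of the summed FPKM in sorted replicates 1 to 4, against at most 0.179% in unsorted and 0.259% in intact DRG, and were high in replicates 3 and 4. Summed over all genes of the list, fibroblast genes came to 499 to 948 FPKM in the intact group, 169 to 340 in the unsorted group and 7.62 to 32.4 in the sorted group. The sums were 1781 to 2105, 2276 to 2857 and 90.1 to 205 FPKM for satellite glia, and 2488 to 4508, 1916 to 3160 and 518 to 1198 FPKM for Schwann cells, in the same order of groups. For pericytes and smooth muscle they were 88.6 to 114, 72.3 to 95.5 and 56.0 to 126 FPKM, and in the sorted group most of it was Rgs5. Single genes also weighed on the other sums. Glul, on the satellite glia list, gave 82.3 to 111 FPKM in sorted and 138 to 160 in unsorted DRG. On the Schwann cell list, Pmp22 gave 295 to 431 and Mbp 73.0 to 578 FPKM in sorted DRG, against 509 to 863 and 396 to 586 in unsorted DRG. The part of these other cells in the endothelial values was not tested.

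**Figure D4:**
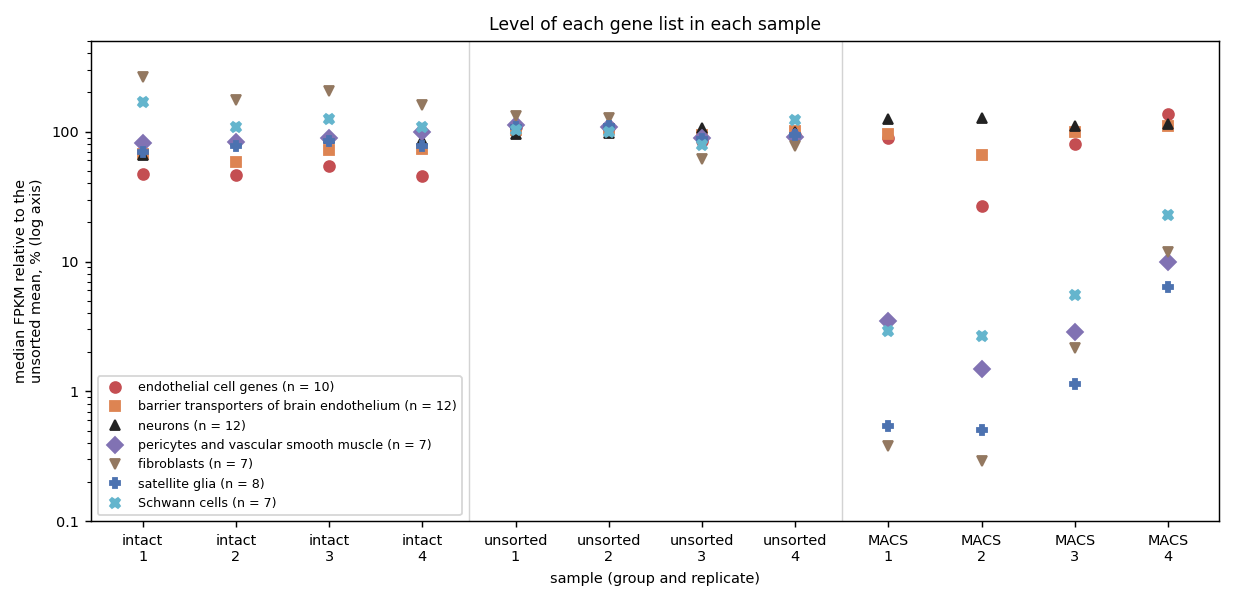
Median level of the genes of 7 lists in each of the 12 samples, as % of the unsorted mean (log axis), for genes with an unsorted mean of at least 1 FPKM. The endothelial genes stay between 26.9% and 137% in the sorted samples, above the lists of pericytes, fibroblasts, satellite glia and Schwann cells in every sorted sample, which lie between 0.294% and 22.8%. Among endothelial lists not drawn, surface and secreted genes gave 81.5%, 27.4%, 74.9% and 117% in sorted replicates 1 to 4. Transcription factors gave 95.3%, 36.2%, 108% and 121%. Arterial genes gave 29.3%, 6.9%, 46.3% and 52.3%, venous genes 43.1%, 17.9%, 32.3% and 55.6%, and lymphatic genes 0.885%, 2.81%, 4.46% and 14.3%.

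The fall of these lists in sorted against unsorted DRG was tested gene by gene with limma. Of all genes, 27.7% were lower and 18.8% higher at an adjusted p under 0.05. All 8 satellite glia genes were lower at an adjusted p under 0.05, as were 6 of 7 Schwann cell genes and 5 of 6 fibroblast genes. Apoe, a lipid carrier abundant in satellite glia, measured 1674 to 2149 FPKM in unsorted and 8.07, 5.44, 17.5 and 65.1 in sorted DRG. Col1a1, a fibroblast collagen, measured 26.7 to 51.7 FPKM in unsorted and 0.0640, 0.0416, 0.844 and 5.57 in sorted DRG. Of 7 pericyte and smooth muscle genes 6 were lower, and the contractile gene Tagln was listed at 0 in all 4 sorted samples against 11.3 to 16.3 FPKM in unsorted DRG. The other member, Rgs5, a regulator of G-protein signalling used as a pericyte marker, was higher (log2 fold change 0.87, standard error 0.22, adjusted p = 0.0093, limma), at 50.8, 86.5, 76.6 and 119 FPKM in sorted and 38.3 to 49.3 in unsorted DRG. By the same test 12 of 14 red blood cell genes were higher and 0 lower.

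Of 27 further surface and secreted genes 0 were higher and 5 lower in sorted against unsorted DRG, and 22 did not pass, beside 27.7% lower and 18.8% higher of all genes at an adjusted p under 0.05. At an unadjusted p under 0.05, 1 was higher and 7 were lower. Ramp2, the partner of the adrenomedullin receptor, fell from between 12.8 and 17.1 FPKM in unsorted to 4.49, 0.645, 5.03 and 6.36 in sorted DRG (log2 fold change -2.16, standard error 0.58, adjusted p = 0.012, limma). Vwf, the clotting factor carrier stored in endothelial granules, fell from between 4.88 and 6.92 FPKM to 2.71, 1.54, 2.56 and 4.63 (log2 fold change -1.18, standard error 0.28, adjusted p = 0.0063, limma). Mcam, an adhesion molecule, gave 28.7, 48.4, 37.7 and 47.2 FPKM in sorted and 59.7 to 71.8 in unsorted DRG, without a low value in replicate 2. For Ramp2 and Vwf all sorted samples lay below all unsorted ones, which the rule for naming them fixes, and replicate 2 was again the lowest. When replicate 2 was left out, 2 of the 27 were higher and 5 lower, and the share of all genes at this limit was not counted.

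Of 8 arterial genes tested, 6 were lower and 0 higher on sorting at an adjusted p under 0.05 by limma, beside 27.7% lower and 18.8% higher of all genes, and 0 were higher also at an unadjusted p under 0.05. The other 2, named after their values were seen, were the Notch ligand Dll4, at means of 1.07 FPKM in sorted and 0.999 in unsorted DRG, and the netrin receptor Unc5b, at 2.35 and 2.36 FPKM. Of the 11 arterial genes listed, Bmx, Notch4 and Gja5 were under the limit of 1 FPKM and were not tested. Their means were 0.735, 0.868 and 0.0203 FPKM in sorted and 0.741, 0.911 and 0.0989 in unsorted DRG. Sorted and unsorted values did not overlap for the arterial, venous and lymphatic genes described next, which the rule for naming them fixes. Among all genes, 27.8% did not overlap in the lower direction. Hey2, a transcriptional repressor downstream of Notch, measured 17.1, 17.6, 11.9 and 13.9 FPKM in unsorted and 1.42, 0.374, 0.486 and 0.805 in sorted DRG. The receptor Notch1 gave 5.54, 5.09, 5.82 and 5.84 FPKM in unsorted and 0.620, 0.201, 0.524 and 0.737 in sorted DRG. Sema3g, a secreted semaphorin of arteries, gave 8.57 to 9.95 FPKM in unsorted and 1.18, 0.268, 1.41 and 3.00 in sorted DRG. The 2 venous genes tested were lower, among them the transcription factor Nr2f2 at 1.61, 1.78, 1.75 and 1.74 FPKM after sorting against 7.18 to 12.03 before. All 3 lymphatic genes tested were lower, with Pdpn at 0, 0.350, 0.555 and 0.695 FPKM in sorted and 10.9 to 14.6 in unsorted DRG, and Reln at 0.0689, 0.0651, 0.246 and 1.12 against 6.39 to 9.98. The other lymphatic genes listed were under the limit of 1 FPKM already before sorting and were not tested. Their unsorted means were 0.0572 FPKM for Prox1, 0.302 for Mmrn1, and 0.097 and 0.032 for the entries of Ccl21a. Notch1, Nr2f2 and Reln are also known from cells other than endothelium. Which cells the values of Hey2 and Pdpn come from was not tested.

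The ligands and partners of the receptors were counted in the same way, beside the same 18.8% higher and 27.7% lower of all genes. Of 6 tested VEGF ligands and co-receptors, 1 was higher, 2 were lower and 3 did not pass. The ligand Pgf, which binds Flt1, fell from between 5.28 and 5.83 FPKM in unsorted DRG to 0.405, 0.117, 0.569 and 0.314 in sorted DRG. The co-receptor Nrp2 fell from between 11.3 and 13.8 FPKM to 4.03, 3.08, 5.28 and 3.65. Of 5 genes of the angiopoietin pathway 4 were lower, among them the Tek ligand Angpt2 at 0.0857, 0.0556, 0.135 and 0.519 FPKM against 5.68 to 6.40. The related Angptl4 gave 0.718, 0.110, 0.367 and 2.36 FPKM after sorting and 7.08 to 8.12 before. None of these sorted values overlapped with the unsorted range, which the rule for naming the genes fixes. The junction list gave 8 lower and 1 higher of 13, with Jam3 at 5.04, 3.83, 4.97 and 8.67 FPKM after sorting and 20.6 to 27.5 before, Jam2 at 3.29, 4.17, 5.54 and 7.27 against 12.3 to 14.9, and the scaffold Tjp1 at 4.21, 2.39, 5.31 and 6.62 against 9.13 to 11.1.

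Transporters of the blood-brain barrier and endothelial transcription factors are read against the same shares of all genes, 27.7% lower and 18.8% higher. Of 13 transporters tested, 3 were lower and 1 higher on sorting and 9 did not pass, and the list stood at 95.9%, 65.5%, 98.4% and 110% of the unsorted mean in sorted replicates 1 to 4. The efflux pump Abcg2 was lower, at 16.0, 6.57, 14.4 and 15.6 FPKM against 29.6 to 35.2, as was the lactate carrier Slc16a1, at 9.73, 10.6, 11.3 and 17.4 FPKM against 17.9 to 20.4. Of 12 transcription factors 2 were lower, 2 higher and 8 did not pass. The lower ones were the hypoxia factor Epas1, at 13.1, 7.18, 13.2 and 16.3 FPKM against 36.6 to 43.2, and Ets2, at 6.22, 3.02, 5.69 and 7.16 FPKM against 8.31 to 8.97. Of the 2 higher ones, Tal1 is also a factor of red blood cell development and Ets1 rose by 0.40 on the log2 scale (adjusted p = 0.022, limma); both were named after their values were seen. Ackr1, a chemokine-binding receptor of venules and red blood cells, was at 46.3, 52.2, 46.4 and 48.8 FPKM after sorting against 90.7 to 98.5 before.

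The pattern across the 12 samples was nearly shared by 9 of the 10 genes. The Pearson correlation of a gene's log2(FPKM + 0.1) with the mean of the other 9 was between 0.931 (Cdh5) and 0.977 (Esam) for these, and 0.0559 for Cd34. The 12 samples share 3 groups, so these coefficients describe group differences together with the spread among the sorted samples. Of 12273 genes ranked, the 10 with the highest correlation with the mean of the endothelial genes were Cd93, Slco1a4, Eltd1, Prom1, Mmrn2, C130074G19Rik, Abcb1a, Cyyr1, Podxl and Akr1c14, at 0.948 to 0.986 over the 12 samples. Of these, 6 were already on the lists of endothelial or barrier genes. Cd93, an endothelial surface receptor, gave 1.74, 1.81, 1.95 and 1.69 FPKM in intact, 4.81, 4.87, 3.21 and 4.06 in unsorted and 3.44, 0.774, 3.53 and 4.96 in sorted DRG. The organic anion transporter Slco1a4 gave 4.62, 4.45, 4.55 and 4.43 FPKM in intact, 10.4, 10.2, 8.23 and 9.62 in unsorted and 9.59, 1.87, 10.5 and 14.1 in sorted DRG. In all 10 the unsorted samples lay above the intact samples and sorted replicate 2 was the lowest of the sorted samples, which choosing them by this correlation over the same 12 samples largely fixes.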

How the data were processed

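RNA from 12 samples (4 intact, 4 unsorted and 4 MACS-sorted DRG) was selected for polyA, made into libraries with a NEBNext Ultra directional kit and sequenced as 100-base reads. Per the labels and the study's methods, the authors used TopHat2 for alignment to mm10 with at most 2 alignments per read, merged lanes with SAMtools and estimated expression with Cufflinks 2.1.1. The deposited unit is FPKM, for 24490 genes in each sample. Depth was estimated from steps between low FPKM values of single-transcript genes, assuming fragments of 150 bases.

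Groups were compared in pairs with limma 3.58.1 (R 4.3.3; Python 3.11.15, numpy 2.4.6 and pandas 2.3.3 for summaries) on log2(FPKM + 0.1). Tests were two-sided with an intensity trend, and genes averaging 1 FPKM or more in the 8 samples compared entered the Benjamini-Hochberg adjustment. The study used CuffDiff, which needs aligned reads, so limma took its place. A call needed an adjusted p under 0.05, a log2 ratio of mean FPKM beyond 0.5 and over 5 FPKM on average in the group with more. The limma procedure was tested on simulated data. From each gene list, up to 3 called genes with non-overlapping groups and the largest change on sorting were named, or the highest gene where none was called. Hbb-bs, Hba-a1 and the 10 genes most alike to the endothelial mean were added. Hba-a1 was listed at 0 in all 12 samples. The endothelial genes and all lists were chosen with earlier results of these data known. Deposited gene starts, which count from 0, were shifted by 1. Alternatives covered the pseudocount, the filter, the scaling, the criteria of a call, a fit on all samples, a replicate block and each replicate left out. The result for 1 gene that met the naming rule is not reported here.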

Additional observations from a re-analysis of the deposited data

Results flagged for a closer look

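In groups of 4 samples, a value was singled out where its gap to the nearest of the others took up more of the group's range than Dixon's critical value for 4 samples. Chance singles out about 1 in 20 groups. Of 197 groups of 4 values tested, the 12 given here are close to that share, so nothing is read from their number. None of the 10 endothelial genes met this in any group, although replicate 2 of the sorted group was the lowest for 9 of them. In MACS-sorted replicate 4, 2 red blood cell genes met this: Slc4a1 at 90.3 FPKM (others 15.4 to 28.0) and Rhag at 12.55 FPKM (others 3.09 to 4.61). The same replicate, which was also the highest for 9 endothelial genes, was high for the fibroblast genes Col1a1 at 5.57 FPKM (others 0.0416 to 0.844), Col3a1 at 4.44 FPKM (others 0.139 to 0.612) and Lum at 1.251 FPKM (others listed at 0). It was high for the satellite glia gene Fabp7 at 10.8 FPKM (others 1.21 to 2.35) and the Schwann cell gene Prx at 7.08 FPKM (others 2.09 to 2.25). Intact replicate 1 was high for Lum at 85.2 FPKM (others 30.8 to 35.9) and Pdpn at 17.85 FPKM (others 11.4 to 11.9), and low for the neurofilament gene Nefm at 441 FPKM (others 770 to 823). Apoe was low in intact replicate 2 at 1222 FPKM (others 1411 to 1432), and Mcam was high in unsorted replicate 3 at 71.8 FPKM (others 59.7 to 61.8).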

How the results depend on the processing

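The count of 7 called endothelial genes in unsorted against intact DRG became 3 when all 12 samples entered 1 fit and 4 when the log2 ratio of means had to exceed 1. Leaving out any replicate kept it at 7. For sorted against unsorted DRG the count of 0 became 1 without MACS-sorted replicate 1 (Cd34) and 1 without replicate 2 (Cldn5), a range of 0 to 1 over the replicates left out. For sorted against intact DRG it was 1 (Cldn5) with all 12 samples in 1 fit, 1 with quantile normalization, where 4 passed an adjusted p under 0.05 by limma (Flt1 0.015, Kdr 0.017, Tie1 0.018 and Tek 0.038) but most lay under the limit of 5 FPKM, and 7 without MACS-sorted replicate 2, a range of 0 to 7. Samples with the same replicate number did not deviate together (correlations from -0.143 to 0.067), so the numbers do not pair the samples. With the replicate number as a block, 1 gene (Cldn5) was called in sorted against intact DRG in place of 0, and the counts of 0 and 7 in the other comparisons did not move. Among all these alternatives, the share of all genes called was counted only for the fits without MACS-sorted replicate 2. Single log2 fold changes changed sign in these cases. In sorted against unsorted DRG, Cldn5 was at 0.010 with median-ratio size factors and 0.068 with quantile normalization. Over the replicates left out it ranged from -0.39 to 0.57, Emcn from -0.62 to 0.030 and Pecam1 from -0.73 to 0.0033. In unsorted against intact DRG, Cd34 ranged from -0.23 to 0.020. In sorted against intact DRG, Tek ranged from -0.032 to 0.84, Pecam1 from -0.031 to 0.71 and Cdh5 from -0.084 to 0.59, and with sorted replicates 3 and 4 left out together they were at -0.26, -0.25 and -0.28. Quantile normalization moved the median of all genes to 0.10 in sorted against unsorted and 0.13 in sorted against intact DRG, from -0.04 in each. Each replicate was left out in turn, but the weight given to MACS-sorted replicate 2 was chosen after the data were seen. The same holds for the counts without it for the other lists. The cause of these differences was not tested.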

Other observations

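Genes of blood and of neurons, which belong to none of the endothelial comparisons, also differed between sorted and unsorted DRG. Of 12 platelet genes listed, 2 were tested, Itgb3 and Pf4. Both were lower by limma at an adjusted p under 0.05, beside 27.7% lower and 18.8% higher of all genes. The integrin Itgb3 measured 0.0129, 0.0223, 0.203 and 0.301 FPKM in sorted replicates 1 to 4 against 5.00 to 6.00 in unsorted DRG. From intact to unsorted DRG the mean of Itgb3 rose from 3.75 to 5.60 FPKM, whereas that of Pf4 fell from 6.7 to 2.73. All 3 leukocyte genes tested were lower. S100a9, a calcium-binding protein of neutrophils, gave 12.7, 1.15, 0.361 and 6.60 FPKM after sorting and 12.8 to 32.2 before, so that its sorted values spread widely and replicates 1 and 4 were the highest. Of 12 neuronal genes 6 were higher and 5 lower. The lower ones included the neurofilament genes of large, myelinated neurons, with Nefh at 102, 54.2, 81.9 and 68.2 FPKM in sorted against 610 to 745 in unsorted DRG. That sorted and unsorted values of Nefh did not overlap is fixed by the rule for naming it.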
